A study of Mus musculus with 12 samples.

Results

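The genes described here are 32 members of the p53 pathway, chosen by name from general knowledge of the pathway and found under those symbols among the 53465 genes of the expression table. Earlier results of these data were known when they were chosen, so their shares of calls below are not those of a list picked blind. The members comprise the p53 gene itself (Trp53), its negative regulators Mdm2 and Mdm4, and further genes known as targets or partners of p53 in growth arrest, cell death, metabolism and DNA repair. Expression was measured by RNA-seq in LSKs (Lin- Sca-1+ c-Kit+ cells, the bone marrow fraction that holds hematopoietic stem cells and multipotent progenitors) in 4 groups of 3 libraries. The groups were untreated *Tespa1*+/+, untreated *Tespa1*-/-, *Tespa1*+/+ given 5-FU (5-fluorouracil) and taken at day 9, and *Tespa1*-/- given 5-FU and taken at day 9. The mice were males of 8 to 10 weeks on the C57BL/6 background. The *Tespa1*-/- mice carried the targeted allele Tespa1 tm1Smoc, a germline loss of Tespa1 (thymocyte-expressed, positive selection-associated 1) in all cells, and their controls were littermates by the labels. 5-FU, a fluoropyrimidine that blocks thymidylate synthesis and kills cycling cells, was given once by intraperitoneal injection at 150 mg/kg. Nothing in the labels says how many mice went into a library or that libraries of a group came from separate mice, so the p-values below measure only the spread between these libraries, which may in part be technical.

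The transcription factor p53 is held at a low protein level by the ubiquitin ligase MDM2, whose own gene is a p53 target, and it is stabilised after DNA damage mainly through modification of the protein. Once stable, it binds paired decamers in promoters and introns and raises transcription of genes for arrest, death and repair. In hematopoietic stem cells p53 is known for its part in quiescence and in the response to genotoxic stress. Several of its targets, such as Btg2, Plk2, Plk3 and Gadd45a, are also induced by growth factor, stress and calcium signals without p53.

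The members took a small share of each library of 22118154 to 28275079 counts. That share was 0.130% to 0.132% in untreated *Tespa1*+/+ libraries and 0.106% to 0.119% in the others. The number of genes with a count was 27219 to 29523 in untreated *Tespa1*-/- libraries and 21141 to 24745 in the others. All 7 markers listed for these cells were detected in every library. Per length, as deposited FPKM, Kit was at 25.2 to 37.1, Cd34 at 15.5 to 41.3 and Flt3 at 26.1 to 98.8, whereas Ly6a, which encodes Sca-1, was at 3.05 to 13.3. Slamf1, Procr and Mecom, markers of the stem cells among LSKs, were lower still, at 0.43 to 2.59, 0.92 to 3.31 and 0.90 to 3.20 FPKM. Levels not given as FPKM are in CPM, counts scaled to library size after TMM normalisation. Tespa1 transcript was reduced but present under the knockout label, at 34.5 to 34.9 CPM against 43.0 to 49.8 untreated and at 17.3 to 20.8 CPM against 47.2 to 57.5 after 5-FU. The *Tespa1*-/- libraries after 5-FU also held markers of other cells. The summed CPM of 9 neutrophil markers was 1049 to 1060 there and 19.7 to 44.4 in the other libraries, and that of 7 erythroid markers was 533 to 564 against 84.7 to 152. In bulk RNA, fewer cells of a type and less RNA per cell cannot be told apart.

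The promoters of 6 members are shown because the results below turn on Plk2, Btg2, Tob1 and Plk3, which were lower in untreated *Tespa1*-/- LSKs, and on Mdm2 and Ccng1, which are classical p53 targets. Each is 300 bases from 250 before the RefSeq start site to 50 after it, read in the direction of transcription (RefSeq, GRCm38.p6). Plk2 lies at chr13:110394794-110395093 on the plus strand, Btg2 at chr1:134079106-134079405 on the minus strand, Tob1 at chr11:94211204-94211503 on the plus strand, Plk3 at chr4:117133914-117134213 on the minus strand, Mdm2 at chr10:117710709-117711008 on the minus strand and Ccng1 at chr11:40755237-40755536 on the minus strand. Capitals mark TGACG on either strand (CGTCA on the minus strand), the core of the cAMP response element, and matches to the p53 decamer.
Plk2: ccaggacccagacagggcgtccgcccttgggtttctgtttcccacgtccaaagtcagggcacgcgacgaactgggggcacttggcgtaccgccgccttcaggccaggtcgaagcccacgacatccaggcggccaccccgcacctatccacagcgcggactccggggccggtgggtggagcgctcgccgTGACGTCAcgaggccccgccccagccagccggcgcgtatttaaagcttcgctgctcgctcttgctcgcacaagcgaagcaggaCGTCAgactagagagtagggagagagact
Btg2: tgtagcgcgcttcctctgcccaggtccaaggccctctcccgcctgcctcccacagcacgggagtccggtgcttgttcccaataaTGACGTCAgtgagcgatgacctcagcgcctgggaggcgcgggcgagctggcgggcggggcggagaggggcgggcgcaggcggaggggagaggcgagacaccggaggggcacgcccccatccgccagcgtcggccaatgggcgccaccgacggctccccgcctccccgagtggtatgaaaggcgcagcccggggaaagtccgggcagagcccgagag
Tob1: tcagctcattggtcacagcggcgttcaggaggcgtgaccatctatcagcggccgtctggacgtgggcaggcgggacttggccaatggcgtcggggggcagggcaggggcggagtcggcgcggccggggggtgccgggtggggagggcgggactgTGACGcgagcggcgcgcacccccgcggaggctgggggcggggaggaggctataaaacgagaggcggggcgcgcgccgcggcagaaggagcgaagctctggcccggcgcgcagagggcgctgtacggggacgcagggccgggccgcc
Plk3: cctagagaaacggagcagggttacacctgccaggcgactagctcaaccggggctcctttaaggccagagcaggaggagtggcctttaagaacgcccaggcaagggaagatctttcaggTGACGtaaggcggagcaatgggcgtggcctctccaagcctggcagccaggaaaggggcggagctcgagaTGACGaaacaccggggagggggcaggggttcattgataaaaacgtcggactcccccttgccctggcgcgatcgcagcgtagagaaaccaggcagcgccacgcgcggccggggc
Mdm2: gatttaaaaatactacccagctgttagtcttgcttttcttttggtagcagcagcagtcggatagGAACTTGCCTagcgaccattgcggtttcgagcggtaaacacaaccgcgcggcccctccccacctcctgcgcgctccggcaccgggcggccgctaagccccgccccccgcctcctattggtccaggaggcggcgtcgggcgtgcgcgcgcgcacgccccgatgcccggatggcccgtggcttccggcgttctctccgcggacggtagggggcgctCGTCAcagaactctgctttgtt
Ccng1: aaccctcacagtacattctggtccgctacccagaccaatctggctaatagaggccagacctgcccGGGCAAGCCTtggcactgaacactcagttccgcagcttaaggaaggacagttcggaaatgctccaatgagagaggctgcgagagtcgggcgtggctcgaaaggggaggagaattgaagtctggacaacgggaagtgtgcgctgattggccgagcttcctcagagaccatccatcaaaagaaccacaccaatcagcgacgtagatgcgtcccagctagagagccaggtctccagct

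Promoters were found in RefSeq for 25 of the 32 members, 31 promoters in all. Full cAMP response elements, TGACGTCA, contain the core on both strands. Among the members they were found in Plk2 and Btg2 only, in 2 of the 31 promoters, and in 1.79% of all 32851 promoters of this length. In Plk2 the element ran from 62 to 55 bases before the start site, and in Btg2 from 166 to 159 bases before it. The core TGACG, searched on both strands, was in 8 members (Mdm2, Sesn1, Btg2, Plk2, Plk3, Polk, Ercc5 and Tob1). It was in 8 of the 31 member promoters and in 20.8% of all promoters. Matches to the p53 decamer were in 8 members (Trp53, Mdm2, Ccng1, Sesn1, Aen, Ei24, Polk and Gadd45a). They were in 9 of the 31 member promoters and in 8.36% of all promoters. None of Plk2, Btg2, Tob1 and Plk3 held a decamer match in this window. These motifs were chosen with the expression values known. A match describes letters and is not evidence of binding.

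Levels of different genes were compared per transcript length, as deposited FPKM. Btg2, an antiproliferative cofactor, had the highest FPKM of the members in each group, from 58.9 ± 0.56 (SD, n = 3) in untreated *Tespa1*-/- to 87.8 ± 9.33 in untreated *Tespa1*+/+. Xpc, the damage sensor of global nucleotide excision repair, was next in each group, at 21.6 ± 1.41 to 30.0 ± 2.50 FPKM. Trp53 was at 13.8 ± 1.09 to 16.1 ± 1.41 FPKM, the 5th highest in untreated *Tespa1*+/+ and the 3rd in the other groups. Over all libraries the median was at least 10 FPKM for 6 members, between 1 and 10 for 19 and below 1 for 7. The lowest were Eda2r and Fas, which encode receptors of the TNF receptor superfamily, at group means of 0.04 to 0.11 and 0.15 to 0.38 FPKM. Eda2r, Fas and Ephx1 had a library with no count, and a count of 0 allows up to 3 counts, which is 0.106 to 0.136 CPM in these libraries and allows for counting error alone. Plk2 moved most in this order. It was the 3rd highest member in untreated *Tespa1*+/+ at 20.4 ± 0.95 FPKM, the 9th in untreated *Tespa1*-/-, the 8th in *Tespa1*+/+ after 5-FU and the 15th in *Tespa1*-/- after 5-FU at 3.66 ± 0.26 FPKM.

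**Figure D1:**
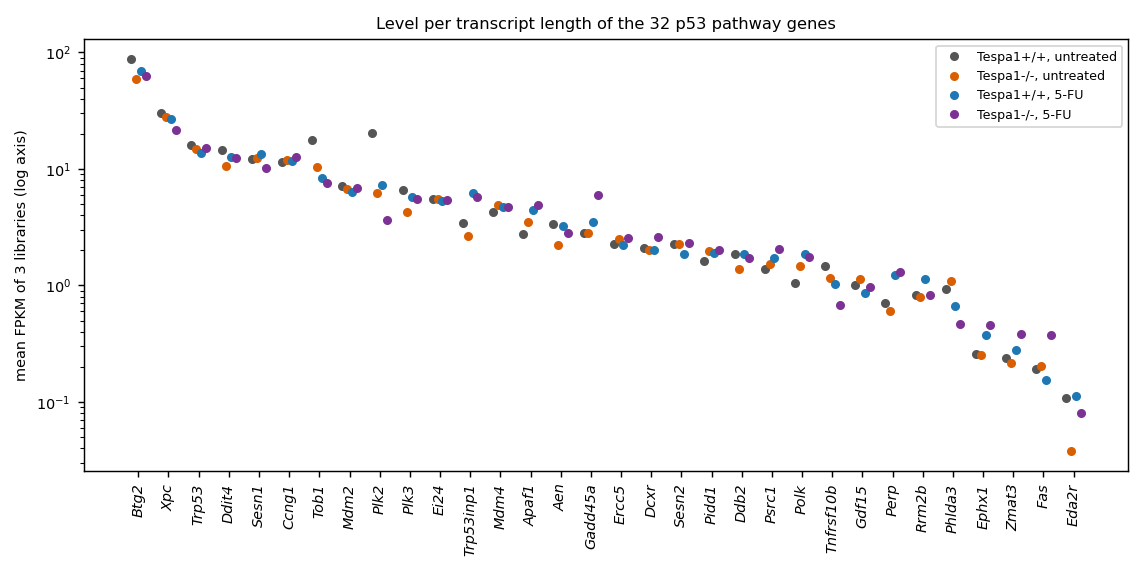
Mean FPKM of 3 libraries (log axis) of the 32 p53 pathway genes, ordered by their median over all libraries, with 1 point for each of the 4 groups. Btg2 and Xpc lead in every group, and the 4 points of Plk2 are spread from 3.66 to 20.4 FPKM.

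The p53 gene and its 2 negative regulators were not called in any comparison of 2 groups, nor was Ccng1, a cyclin G gene and p53 target that acts back on MDM2. Tests were edgeR's quasi-likelihood test, and a call is a Benjamini-Hochberg adjusted p below 0.05 over all genes tested. Trp53 was at 117, 105 and 125 CPM in untreated *Tespa1*+/+, 103, 108 and 106 in untreated *Tespa1*-/-, 88.9, 95.9 and 103 in *Tespa1*+/+ after 5-FU and 107, 115 and 102 in *Tespa1*-/- after 5-FU. The *Tespa1*+/+ libraries after 5-FU lay below the untreated ones without overlap, by a log2 fold change of -0.27 ± 0.09 (SE, adjusted p = 0.123), and the genotypes overlapped in both treatments. DESeq2 called none of Trp53, Mdm2, Mdm4 and Ccng1, and among the comparisons of 2 groups edgeR had only Trp53 here and Mdm4 in untreated mice at an unadjusted p below 0.05. With all 12 libraries in one fit this difference in Trp53 passed the threshold (adjusted p = 0.0456).

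Mdm2 was at 76.0, 66.4 and 69.7 CPM in untreated *Tespa1*+/+, 66.8, 66.9 and 63.5 in untreated *Tespa1*-/-, 59.0, 69.2 and 55.1 in *Tespa1*+/+ after 5-FU and 73.4, 62.3 and 64.9 in *Tespa1*-/- after 5-FU. All 4 groups overlapped with at least 1 other, and the largest fitted log2 difference was -0.21 ± 0.11 (5-FU in *Tespa1*+/+, adjusted p = 0.309). Ccng1 was at 46.9, 51.9 and 52.6 CPM in untreated *Tespa1*+/+, 51.1, 53.4 and 50.3 in untreated *Tespa1*-/-, 51.8, 51.5 and 44.4 in *Tespa1*+/+ after 5-FU and 62.9, 48.5 and 52.9 in *Tespa1*-/- after 5-FU. Its log2 fold changes lay between -0.03 and 0.15, with standard errors of 0.08 to 0.12. Mdm4, which encodes an inhibitor of p53 transactivation, ran from 98.8 to 126 CPM over the 12 libraries. In untreated mice its *Tespa1*-/- libraries lay above the *Tespa1*+/+ ones by 0.19 ± 0.07 on the log2 scale (adjusted p = 0.182).

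**Figure D2:**
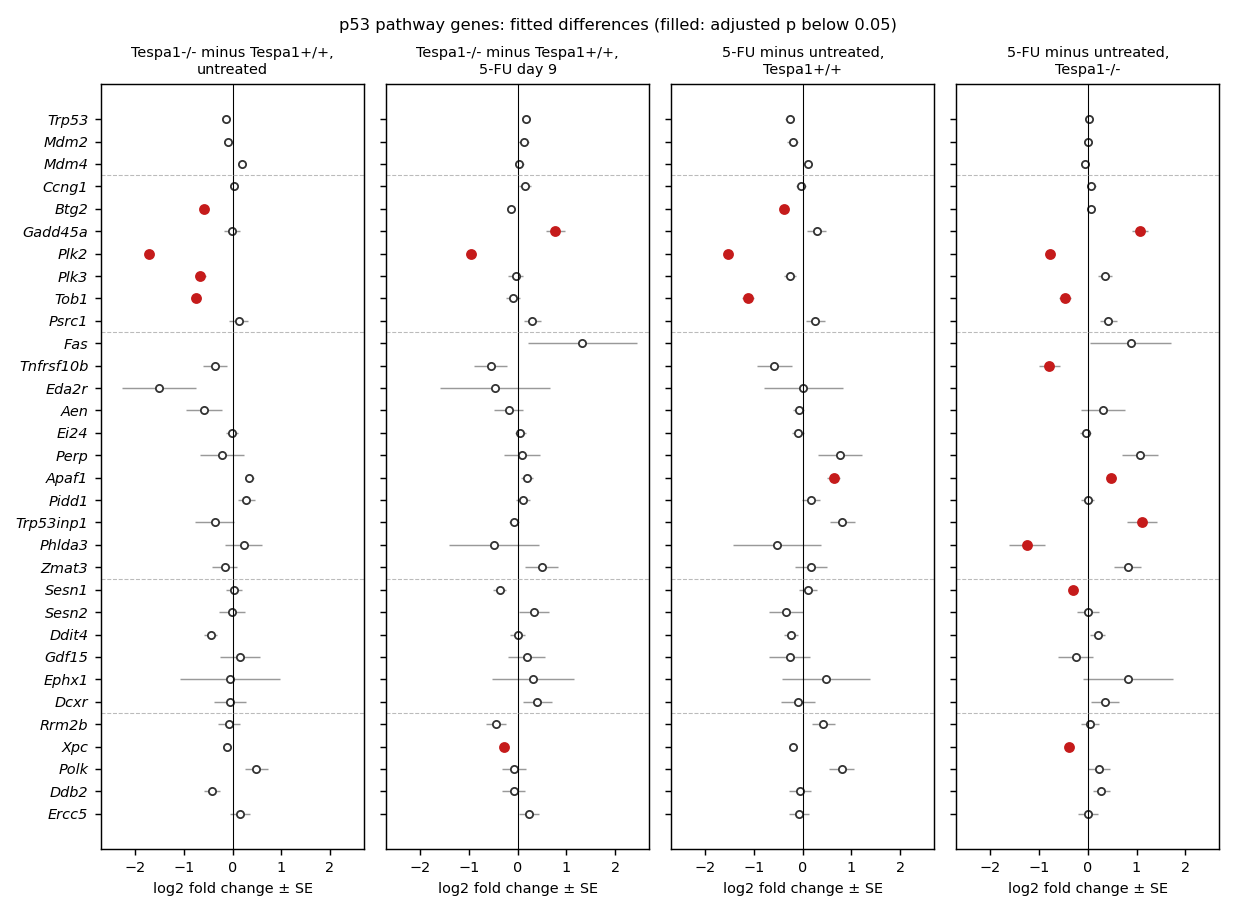
Fitted log2 fold change with its SE for each of the 32 p53 pathway genes (vertical axis, grouped by role between dashed lines) in the 4 comparisons. Filled points passed an adjusted p of 0.05. In the untreated comparison the 4 filled points, all below 0, are Btg2, Plk2, Plk3 and Tob1, and a missing point marks a gene that did not pass the filter on low counts.

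In untreated mice the comparison of genotypes asks what loss of Tespa1 does without stress. Plk2, Tob1, Plk3 and Btg2 fell in *Tespa1*-/- LSKs, the first 3 by 3.31, 1.69 and 1.58 times, and no member rose (2 were higher at an unadjusted p below 0.05, and DESeq2 called 1). The 4 were 12.9% of the 31 members tested. Over all 17055 genes tested, 5.23% were called, 1.64% higher and 3.59% lower. That share was 1.90% to 2.05% without any 1 *Tespa1*-/- library, where 9.38% to 12.5% of the members were called, 3.08% without replicate 2 of *Tespa1*+/+, and 3.85% to 4.51% without either other *Tespa1*+/+ library. All 4 belong to the 7 cell-cycle and antiproliferative members, whose median log2 fold change was -0.59. The median of the 31 members was -0.07 and that of all genes 0.01. Groups did not overlap for 9 members, 7 lower and 2 higher in *Tespa1*-/-, where 25.6% of all genes did not overlap (12.3% higher and 13.4% lower). Fas was too low to be tested.

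Plk2 encodes a polo-like kinase with a part in centriole duplication and checkpoint arrest. Its 148, 161 and 149 CPM in untreated *Tespa1*+/+ libraries compared with 44.5, 46.2 and 47.5 in untreated *Tespa1*-/-. The 3 libraries of each genotype lay close together and far from those of the other (log2 fold change -1.73 ± 0.07, adjusted p = 6.73e-06). Tob1, a BTG/TOB family protein that slows the cell cycle and recruits deadenylases to mRNA, was at 42.3, 38.6 and 41.3 CPM against 23.5, 22.7 and 26.2 (-0.75 ± 0.10, adjusted p = 0.00426). Its groups did not overlap. Btg2, of the same family, was at 220, 240 and 273 CPM against 162, 163 and 161 (-0.59 ± 0.08, adjusted p = 0.0041). The *Tespa1*+/+ libraries of Btg2 were spread more widely than those of *Tespa1*-/-, without overlap. Plk3, a stress-responsive polo-like kinase, was at 25.4, 27.2 and 25.0 CPM against 15.6, 16.4 and 16.8 (-0.66 ± 0.11, adjusted p = 0.012). Its groups did not overlap either, but its call was lost without any 1 of the 3 *Tespa1*-/- libraries, with adjusted p of 0.0517 to 0.0702, and the other 3 calls were kept without any 1 library.

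**Figure D3:**
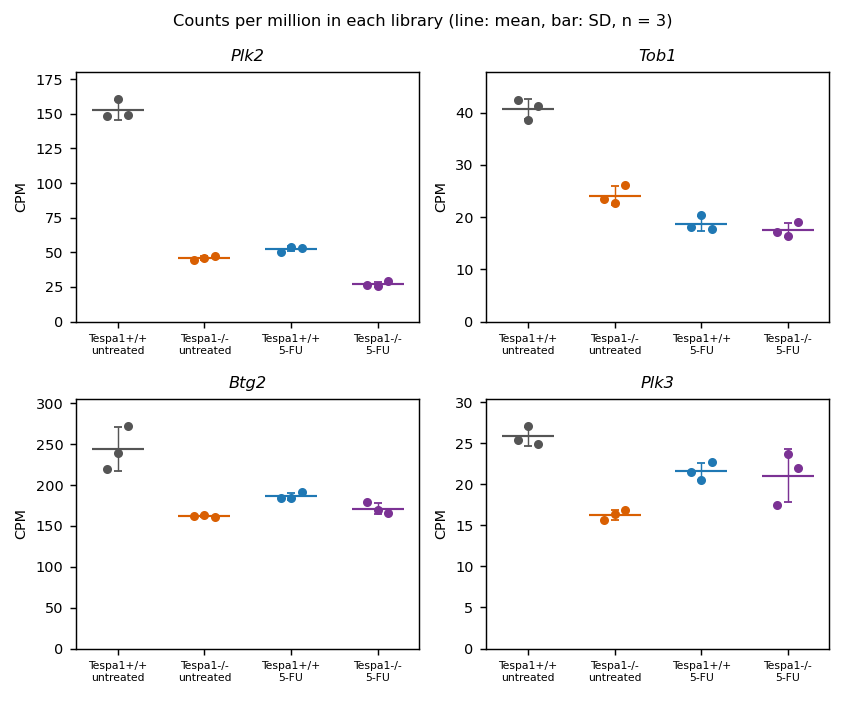
CPM of Plk2, Tob1, Btg2 and Plk3 in each of the 12 libraries (points), with the mean (line) and SD (bar) of the 3 libraries of each group, on axes that start at 0. For each gene the 3 untreated *Tespa1*+/+ libraries lie above all other libraries.

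The other roles held no call of edgeR's test in untreated mice, with 4 members at an unadjusted p below 0.05. Of the 10 death receptor and apoptosis members tested, Apaf1, the scaffold of the apoptosome, came closest, with a log2 fold change of 0.34 ± 0.09 (adjusted p = 0.0848). DESeq2 called Apaf1 higher in *Tespa1*-/- (adjusted p = 0.029). Of the 6 stress and metabolism members, Ddit4, an inhibitor of mTORC1, was lower without overlap at -0.45 ± 0.14 (adjusted p = 0.119). Of the 5 DNA repair and nucleotide supply members, Ddb2, a sensor of ultraviolet lesions, was lower without overlap at -0.42 ± 0.16 (adjusted p = 0.217), and 23.8% of its exonic bases overlap Acp2 on the opposite strand. Of the 27 uncalled members 25 had a fitted difference of less than 1.5 times. The 2 outside were Eda2r (-1.51 ± 0.75) and Aen (-0.59 ± 0.37), an exonuclease induced by p53, and both varied widely between replicates. Aen was at 17.5, 41.2 and 12.8 CPM in the 3 untreated *Tespa1*-/- libraries, and it was called lower without the one at 41.2 (adjusted p = 0.018).

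Other gene lists moved in the same comparison. Of 16 immediate-early genes such as Fos and Egr1, transcription factors switched on within minutes of a signal, 15 were called lower in untreated *Tespa1*-/- LSKs, with a median log2 fold change of -0.80. Their summed level was 11370 to 11853 CPM in untreated *Tespa1*+/+ and 7733 to 7869 in untreated *Tespa1*-/-. Cell type markers differed as well. All 7 LSK markers had lower fitted levels in *Tespa1*-/- and 3 were called, Mecom (-0.62), Flt3 (-0.30) and Cd34 (-0.27 on the log2 scale), and their sum was 1452 to 1530 CPM in *Tespa1*+/+ against 1215 to 1245 in *Tespa1*-/-. Called higher were 1 of 4 megakaryocyte markers tested (sum 32.4 to 37.2 against 61.1 to 63.5 CPM), 2 of 5 monocyte and macrophage markers (95.4 to 103 against 128 to 134 CPM) and 1 of 7 erythroid markers (84.7 to 121 against 126 to 135 CPM). Of 6 B cell markers tested 2 were called lower, Cd79a (-1.24) and Pax5 (-1.16), with a sum of 48.0 to 59.4 CPM in *Tespa1*+/+ and at most 37.7 in *Tespa1*-/-, and 2 of 8 heat-shock genes were called higher. None of 5 neutrophil and 2 T and NK cell markers tested was called by edgeR, with 3 and 0 at an unadjusted p below 0.05. DESeq2 called 1 and 0 of them higher, and their median log2 fold changes were 1.69 and 1.11. The part of the immediate-early genes or of other cells in the fall of Plk2, Tob1, Btg2 and Plk3 was not tested. Of 18 p53 targets that are not members, 1 was higher and 2 were lower. Cdkn1a, the p21 inhibitor of cyclin-dependent kinases and a chief p53 target, fell from 144 to 163 CPM in *Tespa1*+/+ to 58.0 to 61.0 in *Tespa1*-/- (-1.34 ± 0.07, adjusted p = 3.3e-05). Lif, a cytokine gene, was lower at -2.07 ± 0.45 and Tigar, a fructose bisphosphatase gene, was higher at 1.17 ± 0.22. None of the 14 upstream regulators of p53 that could be tested, such as Atm and Chek2, was called by edgeR, with 3 lower at an unadjusted p below 0.05 and 1 lower by DESeq2. None of 17 G2/M genes was called by edgeR (1 higher at an unadjusted p below 0.05 and 1 by DESeq2), and none of 15 S-phase genes (2 lower at an unadjusted p below 0.05 and 0 by DESeq2).

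In *Tespa1*+/+ mice the comparison of day 9 after 5-FU with untreated LSKs describes mRNA levels of the members in sorted cells whose type markers also differed. It shares its untreated libraries with the untreated comparison of genotypes above, so the values of the 2 comparisons are not independent. Plk2, Tob1 and Btg2 fell and Apaf1 rose, 12.9% of the 31 members tested. Over all 17002 genes tested, 7.95% were called, 3.77% higher and 4.18% lower. The share was 4.39% to 4.81% without any 1 library after 5-FU or replicate 2 untreated, and 5.50% to 6.14% without either other untreated library. Of the members, 6.25% to 9.68% were called in the former fits and 9.38% or 12.5% in the latter. The median log2 fold change of the members was -0.07, beside 0.01 for all genes. Groups did not overlap for 4 members that were higher and 5 that were lower after 5-FU, where 28.5% of all genes did not overlap (14.0% higher and 14.5% lower).

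Plk2 fell to 50.4, 53.9 and 53.2 CPM after 5-FU, 2.90 times below untreated *Tespa1*+/+ (log2 fold change -1.54 ± 0.07, adjusted p = 1.15e-05). Tob1 fell to 18.1, 20.4 and 17.7 CPM, 2.17 times lower (-1.12 ± 0.12, adjusted p = 0.000612). Btg2 was at 184, 184 and 192 CPM (-0.39 ± 0.08, adjusted p = 0.0188). None of the 3 overlapped the untreated libraries, and the calls of Plk2 and Tob1 were kept without any 1 library. Btg2 lost its call without replicate 2 of the untreated libraries or any 1 of those after 5-FU (adjusted p of 0.0533 to 0.0804). Apaf1 was at 41.6, 39.5 and 45.9 CPM untreated and 70.4, 74.0 and 52.7 after 5-FU (0.64 ± 0.14, adjusted p = 0.0214). Its groups did not overlap, but the call was lost without replicate 1 or 2 of either group (adjusted p of 0.0666 to 0.0949). Plk3 was at 21.6, 20.6 and 22.7 CPM after 5-FU, below the untreated libraries without overlap (-0.26 ± 0.12, adjusted p = 0.28).

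Among the 27 members not called in *Tespa1*+/+ mice, 23 differed by less than 1.5 times. The largest fitted rise was that of Trp53inp1, a p53-induced nuclear protein with a part in autophagy and death, at 0.81 ± 0.26 (adjusted p = 0.104). It was at 29.6, 31.0 and 13.7 CPM untreated and 38.6, 46.9 and 45.2 after 5-FU. Polk, a translesion DNA polymerase, was at 0.80 ± 0.26 (adjusted p = 0.107). DESeq2 called both (adjusted p = 0.0111 and 0.0447). Of the 18 other p53 targets 3 were called. Lif fell by 2.94 ± 0.35 and Cdkn1a fell by 0.74 ± 0.08 on the log2 scale, and Tap1, a peptide transporter of antigen presentation, rose by 0.46 ± 0.10. Beside these, 14 of 16 immediate-early genes were called lower (median -0.86) and 6 of 6 B cell markers tested were called higher, from a summed 48.0 to 59.4 CPM of the list to 175 to 190. Also called higher were 3 of 4 megakaryocyte markers tested (median 2.55, sum 32.4 to 37.2 against 108 to 123 CPM), 3 of 7 erythroid markers (84.7 to 121 against 146 to 152 CPM) and 1 of 6 neutrophil markers tested. Of the 7 LSK markers Slamf1 (1.73) and Mecom (0.98) rose, and Cd34 (-0.57) and Flt3 (-0.96) fell. Of 8 heat-shock genes 5 were called lower (median -0.43), and edgeR called 1 G2/M gene of 17 and 1 S-phase gene of 15 lower. DESeq2 called 1 S-phase gene higher and 4 lower, and at an unadjusted p below 0.05 edgeR had 1 higher and 5 lower. Both T and NK cell markers tested were higher without overlap (median 1.65), called by DESeq2 but not by edgeR (2 at an unadjusted p below 0.05). Of 5 monocyte and macrophage markers tested edgeR called none, with 2 lower at an unadjusted p below 0.05 and 1 called lower by DESeq2. None of 14 upstream regulators tested was called by edgeR or DESeq2, with 2 lower at an unadjusted p below 0.05. The part of these lists in the members' results was not tested.

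In *Tespa1*-/- mice 9 of the 31 members tested, or 29%, were called after 5-FU. Over all 17228 genes tested, 19.4% were called, 10.7% higher and 8.64% lower. The share was 12.6% without replicate 2 untreated, 13.1% or 13.2% without either other untreated library, and 16.4% to 17% without any 1 after 5-FU. Of the members, 12.5% were called without replicate 2 untreated and 18.8% without either other untreated library. Without any 1 library after 5-FU, 16.1% to 19.4% of the members were called, so the excess over all genes was small or absent in these fits. The members that rose were Trp53inp1, Gadd45a and Apaf1, and those that fell were Phlda3, Tnfrsf10b, Plk2, Tob1, Xpc and Sesn1. The median log2 fold change of the members was 0.06, beside -0.01 for all genes. Groups did not overlap for 8 members that were higher and 6 that were lower, where 38.6% of all genes did not overlap (20.4% higher and 18.1% lower). Eda2r was too low to be tested.

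Gadd45a encodes a stress protein that acts in G2 arrest, p38 signalling and DNA repair. It was at 11.8, 11.0 and 12.3 CPM in untreated *Tespa1*-/- and at 23.5, 30.2 and 20.1 after 5-FU (log2 fold change 1.06 ± 0.17, adjusted p = 0.00255). The libraries after 5-FU lay above all untreated ones, and the call was kept without any 1 library. In untreated *Tespa1*+/+ it was at 12.3, 9.82 and 13.1 CPM. The gene lies at chr6:67035096-67037457 on the minus strand, and 19.1% of its exonic bases overlap E230016M11Rik on the opposite strand. The kit kept strand, but whether the counting used it is not given in the sources used here, so reads of the 2 genes may not be told apart. E230016M11Rik itself was at 0.92 to 2.01 CPM in untreated *Tespa1*-/- and 1.57 to 3.34 after 5-FU.

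Apaf1 rose from 58.5, 51.7 and 50.6 CPM to 68.6, 82.5 and 74.8 (0.48 ± 0.09, adjusted p = 0.00689), without overlap and also without any 1 library. Trp53inp1 was at 27.3, 21.0 and 9.25 CPM untreated and 39.9, 42.7 and 42.4 after 5-FU (1.11 ± 0.31, adjusted p = 0.0361). Its untreated libraries were far apart and its call was lost without replicate 2 of the untreated libraries or any 1 of those after 5-FU (adjusted p of 0.0763 to 0.0897). Among members not called, Perp, a desmosome gene linked to p53-dependent death, was higher by 1.08 ± 0.37 (adjusted p = 0.0799) and Zmat3, an RNA-binding zinc finger gene, by 0.82 ± 0.28 (adjusted p = 0.0729). Both were called without replicate 2 of the libraries after 5-FU (adjusted p of 0.0478 and 0.0232).

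Plk2 fell further in *Tespa1*-/- mice, from the 44.5 to 47.5 CPM given above to 26.6, 25.5 and 29.0 (-0.78 ± 0.09, adjusted p = 0.000406). Tob1 fell to 17.1, 16.4 and 19.1 CPM (-0.47 ± 0.12, adjusted p = 0.0248). For both the groups did not overlap, and Plk2 kept its call without any 1 library. Tob1 lost it without any 1 library except replicate 3 after 5-FU (adjusted p of 0.0529 to 0.0979). Xpc fell from 177, 178 and 163 CPM to 143, 128 and 129 (-0.39 ± 0.06, adjusted p = 0.0035), without overlap and also without any 1 library. In untreated *Tespa1*+/+ Xpc was at 185, 203 and 172 CPM.

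The remaining 3 falls in *Tespa1*-/- mice rested on few counts or small differences. Sesn1, a sestrin that restrains mTORC1 under stress, was at 46.4, 51.8 and 53.8 CPM untreated and 43.8, 41.6 and 39.1 after 5-FU (-0.30 ± 0.09, adjusted p = 0.0407). Tnfrsf10b, the TRAIL death receptor, was at 6.58, 9.36 and 6.41 CPM and 4.17, 4.57 and 4.29 (-0.79 ± 0.21, adjusted p = 0.0306). Phlda3, a repressor of Akt signalling, was at 1.93, 2.84 and 1.88 CPM and 0.951, 0.814 and 1.04 (-1.25 ± 0.37, adjusted p = 0.0457). None of the 3 overlapped. In *Tespa1*+/+ mice all 3 overlapped between treatments. Sesn1 was there at 54.4, 57.5 and 37.2 CPM untreated and 62.8, 44.3 and 53.2 after 5-FU, Tnfrsf10b at 8.78, 7.47 and 12.5 and then 3.43, 9.21 and 6.48, and Phlda3 at 2.10, 2.36 and 1.22 and then 0.234, 3.35 and 0.330. In *Tespa1*-/-, Sesn1 lost its call without replicate 2 or 3 of either group (adjusted p of 0.0871 to 0.14), Tnfrsf10b without any 1 library except replicate 3 untreated (0.0589 to 0.129) and Phlda3 without any 1 of the 6 (0.0652 to 0.194). With all 12 libraries in one fit the adjusted p of the 3 was 0.253, 0.127 and 0.332.

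Markers of other cells moved with the whole *Tespa1*-/- comparison of 5-FU. All 9 neutrophil and all 7 erythroid markers were called higher after 5-FU, with median log2 fold changes of 8.07 and 4.27, while Ly6g, a defining neutrophil marker, was at 0 before and at 0.58 to 1.58 CPM after. Of 17 G2/M genes 15 were called higher (median 0.53), of 15 S-phase genes 3 were called higher and 1 lower, and of 16 immediate-early genes 14 were called lower (median -0.31). Also called higher were 6 of 7 B cell markers, 4 of 4 megakaryocyte markers tested and 3 of 4 T and NK cell markers tested, while 3 of 7 LSK markers were called higher and 2 lower, and 5 of 8 heat-shock genes were called lower. Of 6 monocyte and macrophage markers 3 were called higher and 1 lower. The part of these lists in the results of the members was not tested. Of the 18 other p53 targets 4 were called higher and 1 lower. The largest rises were those of Gtse1, a G2 and S phase gene that binds p53 (0.62 ± 0.11), Pmaip1, the BH3-only protein NOXA (0.58 ± 0.12), and Cd82, a tetraspanin gene (0.44 ± 0.11). The 1 lower was Cdkn1a at -0.27 ± 0.08. Of 14 upstream regulators 3 were called lower and 1 higher. Trp53bp1, a double-strand break adaptor, fell by 0.52 ± 0.07, Atm, the kinase that signals such breaks, fell by 0.36 ± 0.06, and Chek2, a checkpoint kinase, rose by 0.52 ± 0.11 on the log2 scale.

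After 5-FU the comparison of genotypes asks what loss of Tespa1 does to these genes in LSKs under stress. Plk2 and Xpc were lower and Gadd45a was higher in *Tespa1*-/- LSKs, 3 of 32 members tested. Over all 17239 genes tested, 13.1% were called, 7.34% higher and 5.78% lower. The share was 8.37% to 8.48% without any 1 *Tespa1*-/- library and 8.95% to 9.47% without any 1 *Tespa1*+/+ library. In these fits 3.12% to 9.38% of the members were called. With all 6 libraries, the members' 3 calls are no more than the background of 13.1%. The median absolute log2 fold change of the members was 0.19, beside 0.28 for all genes. Groups did not overlap for 7 members, 2 higher and 5 lower, where 33.0% of all genes did not overlap (17.5% higher and 15.5% lower). This comparison shares the libraries after 5-FU with the comparisons of treatments above.

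Plk2 was at 50.4, 53.9 and 53.2 CPM in *Tespa1*+/+ and at 26.6, 25.5 and 29.0 in *Tespa1*-/- after 5-FU, 1.95 times lower (log2 fold change -0.96 ± 0.10, adjusted p = 0.000313). The groups did not overlap and the call was kept without any 1 library. Gadd45a was at 12.1, 14.4 and 16.5 CPM in *Tespa1*+/+ and 23.5, 30.2 and 20.1 in *Tespa1*-/- (0.78 ± 0.19, adjusted p = 0.0253). Every *Tespa1*-/- library lay above every *Tespa1*+/+ library, but the call was lost without replicate 1 or 2 of either group (adjusted p of 0.0633 to 0.0969) and with the replicate number as a block (0.0525). Xpc was at 158, 175 and 154 CPM in *Tespa1*+/+ and 143, 128 and 129 in *Tespa1*-/- (-0.29 ± 0.07, adjusted p = 0.0328). Its groups did not overlap, and its call was lost without replicate 1 or 2 of *Tespa1*+/+ or replicate 2 or 3 of *Tespa1*-/- (adjusted p of 0.0656 to 0.114) and with the block (0.0654).

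**Figure D4:**
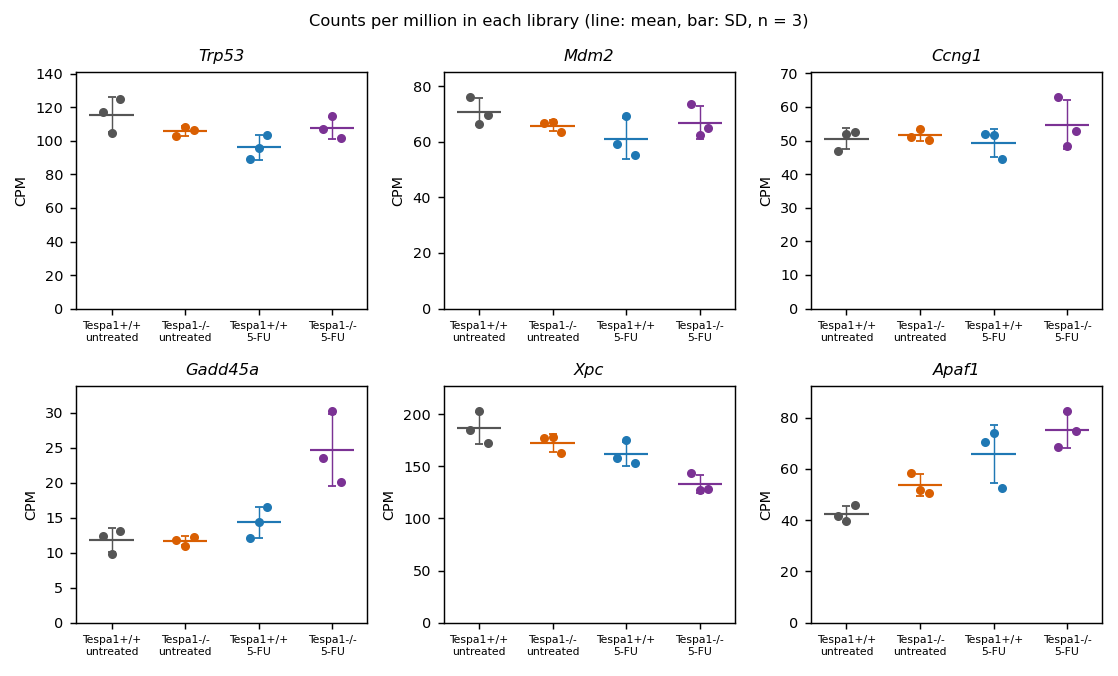
CPM of Trp53, Mdm2, Ccng1, Gadd45a, Xpc and Apaf1 in each of the 12 libraries (points), with the mean (line) and SD (bar) of each group of 3, on axes that start at 0. The 3 *Tespa1*-/- libraries after 5-FU lie above all others for Gadd45a, at 20.1 to 30.2 CPM, and below all others for Xpc, at 128 to 143 CPM.

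Of the 29 members not called between genotypes after 5-FU, 28 differed by less than 1.5 times, the exception being Fas (1.33 ± 1.11), which was near the detection limit. None of the 11 death receptor and apoptosis members and none of the 6 stress and metabolism members was called by edgeR. At an unadjusted p below 0.05 they held 0 and 1, and DESeq2 called 0 of either. Btg2 and Sesn1 were lower in *Tespa1*-/- without overlap, by -0.13 ± 0.06 (adjusted p = 0.18) and -0.37 ± 0.13 (adjusted p = 0.102). Rrm2b, a subunit of ribonucleotide reductase, was also lower without overlap (-0.44 ± 0.20, adjusted p = 0.194), and Psrc1, a spindle protein gene, was higher without overlap (0.30 ± 0.18, adjusted p = 0.33). Sesn1 was called without replicate 2 of *Tespa1*+/+ (adjusted p = 0.0399). Tob1 and Plk3, lower in untreated *Tespa1*-/-, overlapped between genotypes after 5-FU at -0.10 ± 0.14 and -0.04 ± 0.15. Btg2 was at 179, 169 and 166 CPM and Plk3 at 17.5, 23.7 and 22.0 in *Tespa1*-/- after 5-FU.

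The 18 other p53 targets held 4 calls higher and 2 lower in *Tespa1*-/- after 5-FU. Cdkn1a was lower, at 45.6 to 52.3 CPM against 84.0 to 95.2 (-0.86 ± 0.09), Gtse1 was higher (0.83 ± 0.13) and Bax, a pore-forming apoptosis protein, was higher (0.67 ± 0.18). Upstream, Chek2 was higher (0.62 ± 0.12) and Trp53bp1 lower (-0.57 ± 0.07), and edgeR called none of the other 12 regulators tested. Over the 14, DESeq2 called 1 higher and 2 lower, and at an unadjusted p below 0.05 edgeR had 1 higher and 3 lower. In the same comparison 16 of 17 G2/M genes were called higher (median 0.61) and 11 of 16 immediate-early genes lower (median -0.30), and 8 of 15 S-phase genes were called higher (median 0.16). Of the markers, 8 of 9 for neutrophils and 7 of 7 for erythroid cells were called higher, and 5 of 7 for LSKs were called lower, with a summed level of 711 to 754 CPM against 1151 to 1195. Of the others, 2 of 7 B cell, 2 of 4 T and NK cell and 1 of 5 megakaryocyte markers tested were called higher. Of 8 heat-shock genes 7 were fitted higher (median 0.21) and 5 were higher without overlap. EdgeR called 1 higher, with 4 at an unadjusted p below 0.05, and DESeq2 called 4. None of 6 monocyte and macrophage markers was called by edgeR, but their median was 1.04, 4 were higher at an unadjusted p below 0.05, DESeq2 called 2 and their sum was 120 to 122 CPM against 77.9 to 102. The part of these other cells and of cycling cells in the members' values was not tested.

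**Figure D5:**
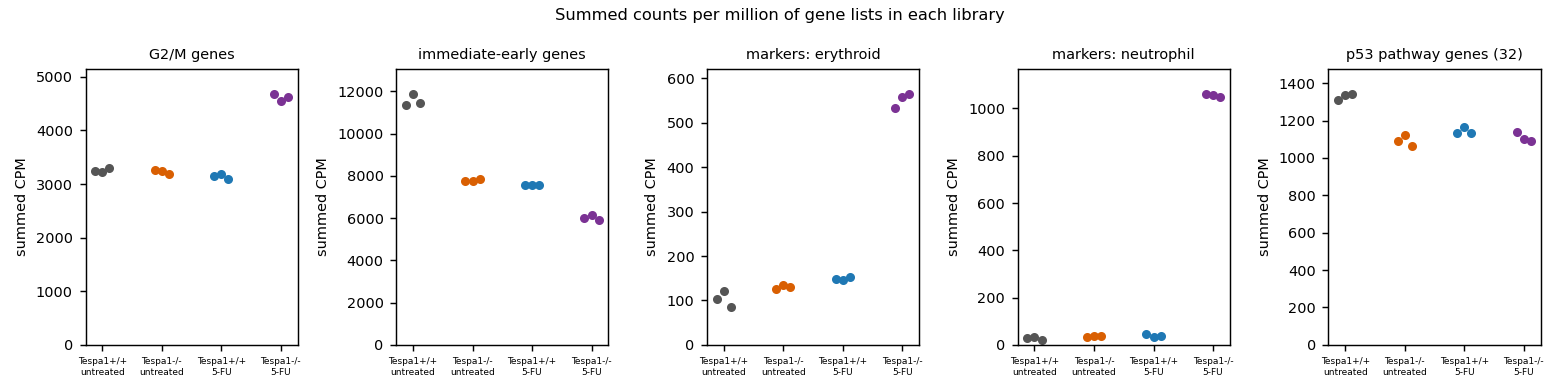
Summed CPM of 5 gene lists in each of the 12 libraries (points), on axes that start at 0. The neutrophil and erythroid marker sums stand apart in *Tespa1*-/- libraries after 5-FU, at 1049 to 1060 and 533 to 564 CPM, whereas the sum of the 32 p53 pathway genes and that of the immediate-early genes are highest in untreated *Tespa1*+/+ libraries.

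Whether the difference between genotypes itself differed between untreated mice and mice after 5-FU was tested as an interaction on all 12 libraries. It was called for 3 of 32 members, all higher, that is, the deficit of *Tespa1*-/- was smaller after 5-FU. Over all 18696 genes tested, 5.01% were called, 3.02% higher and 1.99% lower. The share was 2.89% to 3.08% without any 1 untreated *Tespa1*-/- library, 3.17% without replicate 2 of *Tespa1*-/- after 5-FU, and 3.35% to 4.34% without any 1 of the others. In these fits 6.25% or 9.38% of the members were called. The interaction was 0.77 ± 0.10 on the log2 scale for Plk2 (adjusted p = 0.000705), 0.66 ± 0.16 for Tob1 (adjusted p = 0.0297) and 0.46 ± 0.10 for Btg2 (adjusted p = 0.0144). In each of the 3 the untreated *Tespa1*+/+ libraries stood highest and the other 3 groups lay closer together. Plk2 and Btg2 kept the call without any 1 library. Tob1 lost it in 8 of 12 such fits, without replicate 1 or 3 of untreated *Tespa1*+/+, replicate 1 or 2 of untreated *Tespa1*-/-, and replicate 1 or 3 of either genotype after 5-FU (adjusted p of 0.0574 to 0.0907). For Gadd45a, called between genotypes only after 5-FU, the interaction was 0.79 ± 0.26 (adjusted p = 0.106), so that a difference between the 2 treatments was not shown. Of the other p53 targets Lif, Gtse1 and Cdkn1a were called at 2.41 ± 0.62, 0.76 ± 0.20 and 0.49 ± 0.11, and of 14 upstream regulators Trp53bp1 was called at -0.62 ± 0.09.

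Companion lists moved in the interaction as well. All 16 immediate-early genes were fitted above 0 and 7 were called higher (median 0.49), as were 13 of 17 G2/M genes (median 0.62) and 4 of 15 S-phase genes (median 0.22). Of the markers 4 of 9 for neutrophils (median 3.85), 4 of 7 for erythroid cells (median 2.17) and 2 of 7 for B cells were called higher, and 3 of 7 for LSKs were called lower (median -0.32). EdgeR called no megakaryocyte, monocyte and macrophage or T and NK cell marker and no heat-shock gene, with 1, 1, 2 and 2 at an unadjusted p below 0.05 and none called by DESeq2. The part of these lists in the interaction of Plk2, Tob1 and Btg2 was not tested.

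The sum of Plk2, Tob1, Btg2 and Plk3, a set formed after their values were seen, was 435 to 488 CPM in untreated *Tespa1*+/+ and 235 to 285 in the other libraries. The sum of the other 28 members stayed within 814 to 901 CPM in all 12 libraries. A flat remainder was partly set in advance by that choice, and rises and falls can cancel within a sum. It therefore cannot show that single members were unchanged. Of these members, Gadd45a, Apaf1 and Trp53inp1 were called higher and Xpc, Sesn1, Tnfrsf10b and Phlda3 lower after 5-FU in *Tespa1*-/- mice. The AU-rich heptamer TATTTAT, found in many short-lived mRNAs and also chosen with values known, was in the annotated 3′ UTR of 14 of the 32 members and of 27.0% of 13167 genes. Plk3 held 3 copies, Plk2 held 2, Btg2 held 1 and Tob1 none.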

How the data were processed

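LSKs were profiled by poly-A RNA-seq in 12 libraries. The authors deposited counts of reads per gene, not normalised, and FPKM values, which equal those counts divided by a length per gene and the library total. Count and FPKM gave the same length in every library to within 4.3e-06 over 8529 genes. The submitters' processing notes name CASAVA 1.8, HISAT2, StringTie, edgeR and GRCm38 without their roles. Total counts were 22118154 to 28275079 per library.

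The test was edgeR's quasi-likelihood test (edgeR 4.0.16, R 4.3.3, filterByExpr with a minimum count of 10, TMM, glmQLFit, glmQLFTest) on the 6 libraries of each comparison, and for the interaction on all 12. Calls are Benjamini-Hochberg adjusted p below 0.05 among the genes tested. The standard error is the absolute log2 fold change divided by the square root of F. CPM used TMM factors over 12 libraries. Scripts were tested on simulated data.

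The members and gene lists, including the companion lists and motifs, were chosen with earlier results of these data known. Values in all 12 libraries are given for Trp53, Mdm2 and Ccng1, for up to 8 called members per comparison, for members called in the interaction and, beyond that rule, for Sesn1, the ninth call in *Tespa1*-/- mice after 5-FU. Genes of other lists are named from the 3 largest called changes, except Cdkn1a in *Tespa1*-/- mice, Fos, Egr1, Ly6g and the markers of LSKs, which were named after their values were seen. Members given outside this rule are those nearest to a call or without overlap.

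Alternatives were DESeq2 1.42.0, RLE factors, library totals, a block on the replicate number, no filter, a joint fit of the 12 libraries, a minimum of 10 counts in each library, a fold change above 1.5 with an unadjusted or adjusted p, and each library left out in turn. Promoters are RefSeq's for GRCm38.p6, and 3′ UTRs and overlaps are GENCODE M21's, in which 31 of 32 members have the deposited position. Replicates of a group differed by more than sampling noise.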

Additional observations from a re-analysis of the deposited data

Results flagged for a closer look

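Between untreated mice and mice after 5-FU, the genotype difference of 3 members differed by the interaction test (edgeR's quasi-likelihood test, Benjamini-Hochberg adjustment). For Plk2 it was 0.77 higher on the log2 scale after 5-FU (adjusted p = 0.000705), for Btg2 0.46 higher (adjusted p = 0.0144) and for Tob1 0.66 higher (adjusted p = 0.0297). Plk3 stood out because, within each genotype, its 3 *Tespa1*+/+ libraries after 5-FU lay below all 3 untreated *Tespa1*+/+ libraries, while its 3 *Tespa1*-/- libraries after 5-FU lay above all 3 untreated *Tespa1*-/- libraries. Btg2 showed the same order, although in *Tespa1*-/- it was higher after 5-FU by only 0.06 ± 0.05 (SE) on the log2 scale (adjusted p = 0.419). The interaction of Plk3, 0.63 on the log2 scale, was not called (adjusted p = 0.0664). It passed with DESeq2 (adjusted p = 0.0269) and without replicate 1 of *Tespa1*-/- after 5-FU (adjusted p = 0.0294). No group had enough libraries for a test of single outlying libraries. The causes of these differences were not tested.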

How the results depend on the processing

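No member changed sign in an alternative where it was called. Over the single members and alternatives, 2402 values kept their side of the threshold, 80 lost a call and 18 gained one. Plk2 kept its call in every alternative of all 5 comparisons, as did untreated Btg2 and Tob1, Tob1 after 5-FU in *Tespa1*+/+ and Gadd45a after 5-FU in *Tespa1*-/-. Between genotypes after 5-FU (1 member higher, 2 lower), 1 was lower with no filter and under both fold change thresholds. Untreated (0 higher, 4 lower), DESeq2 called 1 higher. For 5-FU in *Tespa1*+/+ (1 higher, 3 lower), 3 were higher with DESeq2 and with an unadjusted p and a fold change above 1.5. For 5-FU in *Tespa1*-/- (3 higher, 6 lower), 3 were lower with no filter, with all 12 libraries in one fit and under both fold change thresholds. Leaving out 1 library gave 0 to 1 higher and 1 to 2 lower between genotypes after 5-FU, 0 higher and 3 to 4 lower untreated, 0 to 1 higher and 2 to 3 lower for 5-FU in *Tespa1*+/+, 2 to 4 higher and 2 to 3 lower for 5-FU in *Tespa1*-/-, and 2 to 3 higher in the interaction. The causes of these shifts were not tested.

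The replicate numbers did not pair the samples: deviations of same-numbered libraries correlated at -0.0758 to 0.0258. With the replicate number as a block, 0 members were higher and 1 lower between genotypes after 5-FU, 0 and 4 untreated, 0 and 3 for 5-FU in *Tespa1*+/+, 3 and 3 for 5-FU in *Tespa1*-/-, and 2 and 0 in the interaction. A block uses up residual degrees of freedom, which with 3 libraries a group limits the calls.

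Scaling by library totals in place of TMM moved the median of all genes by less than 0.1 on the log2 scale. Over all genes, calls between genotypes after 5-FU were 1265 higher and 996 lower, and 1118 and 1145 by library totals. For 5-FU in *Tespa1*+/+ they were 641 and 711, and 765 and 549 by library totals. In the interaction they were 564 and 372, and 428 and 420 by library totals. Depth limited Eda2r, Fas, Ephx1 and Phlda3, each with under 10 counts in a library.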
